A study of Mus musculus with 2 samples.

Results

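Epha3, Epha6, Unc5d and Ntng2 are 4 of the 500 genes of a MERFISH panel, and they are described here by where in the embryonic brain their transcripts lay, in which cells, and how their levels differed between a control and a Dnmt1 KO section. MERFISH reads single RNA molecules in tissue as fluorescent barcodes over repeated rounds of imaging. The genes were selected on these same data, for the places they marked and for their ratios between the sections, so every value below is a description and none is a test. The control was 1 coronal section of an E16.5 mouse brain that carried Sst-Cre and the tdTomato reporter. The Dnmt1 KO was 1 coronal section of an E16.5 brain with the same Sst-Cre and tdTomato alleles and, in addition, loxP-flanked Dnmt1 (Dnmt1 loxP2). The Sst-Cre driver makes Cre in cells that express Sst, the somatostatin gene of a class of inhibitory interneurons, so deletion of Dnmt1 is directed to these cells and not to other neurons. Dnmt1 itself was not analysed here, so its loss in the KO section was not checked.

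All 4 genes code for proteins at the surface of growing neurons. Eph receptors are receptor tyrosine kinases that bind ephrins on neighbouring cells, and class A receptors such as those made from Epha3 and Epha6 steer axons and migrating neurons along gradients of ephrin-A ligands. Unc5d codes for a receptor of the Unc5 family, which binds netrins and FLRT proteins, mediates repulsion and has long been used as a marker of the subventricular zone and of upper-layer neurons before they settle. Ntng2 codes for netrin-G2, a lipid-anchored relative of the netrins that sits in axon membranes and binds the postsynaptic adhesion protein NGL-2.

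In the mouse genome build GRCm38.p6 all 4 are protein-coding genes on the minus strand. Epha3 (chr16:63543532-63864175) and Epha6 (chr16:59641433-60610911) lie on chromosome 16, Unc5d (chr8:28646717-29219671) on chromosome 8 and Ntng2 (chr2:29194726-29248099) on chromosome 2. Dnmt1 copies methylation onto CpG dinucleotides after replication. The RefSeq promoter windows of the 2 Eph receptor genes are therefore shown, from 250 bases before to 50 bases after the start, 5′ to 3′ on the minus strand with each CpG in capitals. The Epha6 window belongs to a transcript start that lies inside the gene interval given above, downstream of its outer end, and not to that end.
Epha3, chr16:63864126-63864425: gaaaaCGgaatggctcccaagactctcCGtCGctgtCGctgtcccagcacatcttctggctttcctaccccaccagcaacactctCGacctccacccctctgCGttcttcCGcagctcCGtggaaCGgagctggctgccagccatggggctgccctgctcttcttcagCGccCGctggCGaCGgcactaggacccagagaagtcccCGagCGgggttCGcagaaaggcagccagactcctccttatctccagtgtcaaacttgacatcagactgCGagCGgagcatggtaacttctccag
Epha6, chr16:60605482-60605781: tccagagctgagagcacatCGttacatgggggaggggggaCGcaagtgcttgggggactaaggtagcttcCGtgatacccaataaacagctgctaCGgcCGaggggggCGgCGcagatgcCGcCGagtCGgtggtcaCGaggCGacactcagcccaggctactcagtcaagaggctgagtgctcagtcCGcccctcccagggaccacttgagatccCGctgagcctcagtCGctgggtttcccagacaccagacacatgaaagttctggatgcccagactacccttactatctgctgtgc
The letters CG occurred 18 times in the Epha3 window and 15 times in the Epha6 window, and on both strands alike because CG is its own reverse complement. Of 32851 mouse windows of the same length, 29.72% held at least 18 and 34.64% at least 15, with a median of 7. The Ntng2 window held 6, a count that 56.44% of windows reach. Methylation was not measured in these sections, so the windows say nothing about its state.

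The sections held 108533 (control) and 110004 (KO) segmented cells, but 2842355 and 13437174 panel transcripts, with a median of 20 and 101 per cell. Levels are therefore given as CPM, a gene's transcripts per 1000000 panel transcripts, over cells with at least 20 transcripts. There were 55231 such control cells and 101250 such KO cells. The pallial region, which holds the developing cortex and was outlined from pallial and subpallial marker genes, covered 3.56 and 3.43 mm². It held 14148 and 30266 such cells, which were 46.7% of its 30294 control and 96.0% of its 31517 KO cells. Intervals are exact 95% intervals for counting error only. With 1 section and 1 run per genotype, run, section and genotype cannot be told apart. Probe sets differ in efficiency, so levels are compared within a gene and never between genes.

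The genes differed in where they lay in the forebrain, with overlap between them, and the places were broadly alike in both sections. Epha3 filled the pallial wall, rising towards its inner edge, with a weaker signal beside the ventricular zones below. Epha6 was weak in the middle of the pallium and lay in a broad field below the lateral end of the pallium, in the lateral pallium and in patches at the medial prongs. Unc5d formed a strip in the inner part of the dorsal pallium with a diffuse field in the ventral forebrain. Ntng2 drew a pair of parallel bands along most of the pallium and was weak elsewhere. The striatal region, outlined from 7 striatal genes, was low for all 4.

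**Figure D1:**
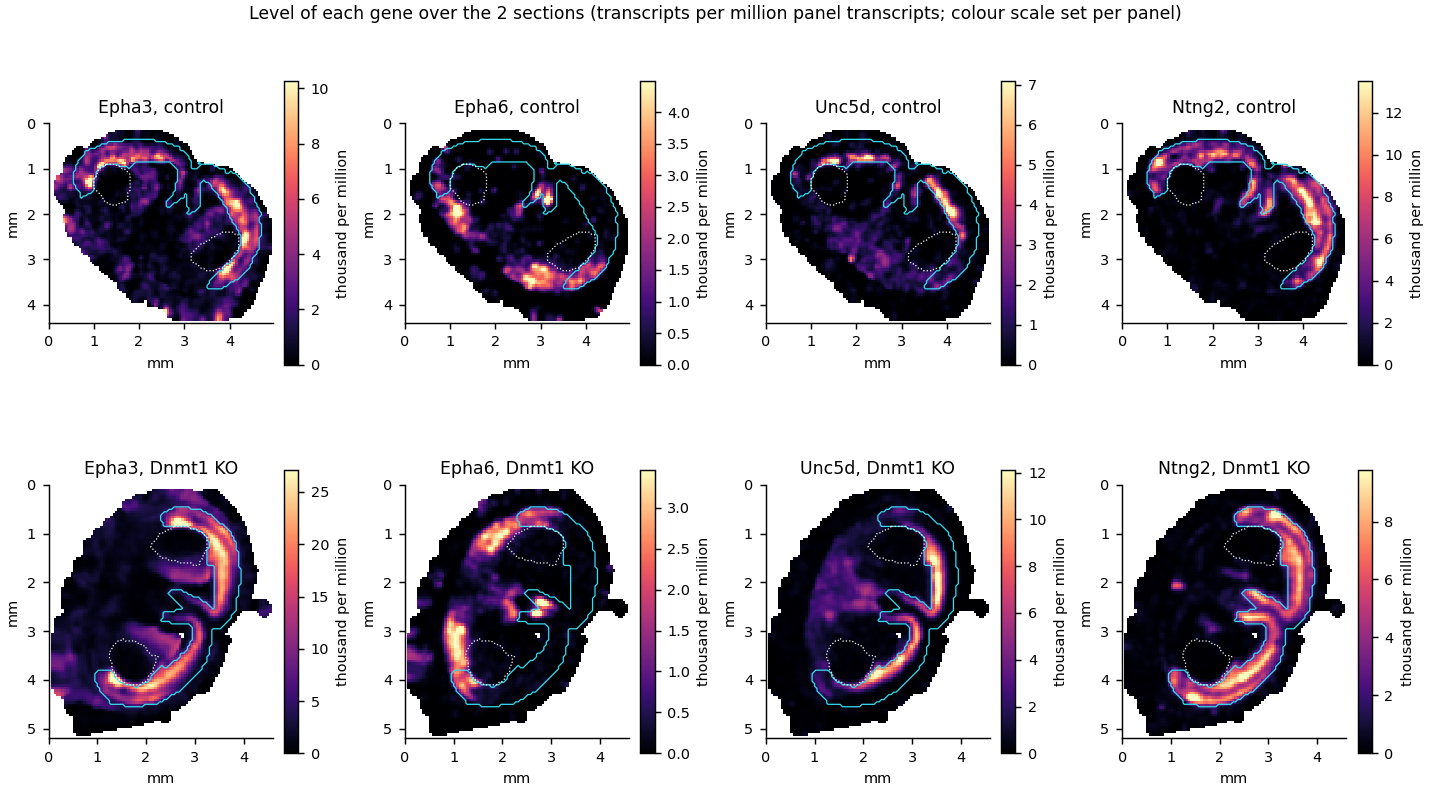
Level of each gene over the control section (top row) and the Dnmt1 KO section (bottom row), with both axes in mm; colour gives the gene's share of panel transcripts on a scale set separately for each panel. The cyan line bounds the pallial region and the dotted white line the striatal region; Epha3 and Ntng2 lie mainly inside the cyan line, Unc5d in a strip inside it and a field outside it, and Epha6 mainly below its lateral end.

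The share of each gene's transcripts that lay inside the outline put numbers on these maps. The pallial region held 24.8% of all panel transcripts in control and 28.5% in KO cells. For Ntng2 the share was 85.2% in control and 86.2% in KO cells, and its level inside was 17.5-fold and 15.6-fold the level outside. For Epha3 it was 55.4% and 63.8%, or 3.78-fold and 4.42-fold. For Unc5d it was 41.9% and 55.4%, or 2.19-fold and 3.12-fold. Epha6 was the least pallial, with 33.8% and 31.8%, or 1.55-fold and 1.17-fold. The order of the 4 genes by this share was therefore Ntng2, Epha3, Unc5d, Epha6 in both sections. In the striatal region Ntng2 was at 85.8 CPM (19 transcripts) and 97.6 CPM, Epha6 at 158 and 179 CPM, Unc5d at 176 and 257 CPM, and Epha3 at 330 and 1369 CPM.

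Across the thickness of the pallium the genes took different positions. Relative depth runs from 0 at the outer, pial side to 1 at the inner edge of the outline and was cut into 10 bins. Epha3 rose inwards, from 714 CPM in the outermost bin to 8764 in the ninth in the control, and from 2689 to 21050 in the innermost bin in the KO section. Unc5d was the most inward of the 4, with a median relative depth of 0.667 in control and 0.591 in KO cells against 0.377 and 0.40 for the whole panel. Its level was 324 CPM in the outermost and 4537 in the ninth bin of the control, and 829 CPM in the outermost and 6888 in the eighth bin of the KO section. The innermost 2 bins held 29.8% of its pallial transcripts in control and 16.3% in KO cells, but the difference in median depth ran from -0.119 to 0.114 over the 4 pairings of brain sides.

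Over both brain sides together Epha6 was the most superficial, with a median relative depth of 0.333 and 0.358 and its highest level in the third bin of both sections, at 1609 and 935 CPM. Both held on the second side, but on the first side the peak lay deeper in both sections and the order by median did not hold in the KO section. There the KO median was 0.44, against 0.427 for Ntng2, with the highest level in the ninth bin, and the control peak, from 50 transcripts in all, was in the fifth. Ntng2 had an outer and an inner maximum. In the control these stood at 7357 CPM in the third bin and 7327 in the seventh, with 5035 between them in the fourth. In the KO section they stood at 6358 CPM in the third bin and 6369.7 in the sixth, with 4672 in the fourth. Reln, a gene of the Cajal-Retzius cells at the surface, peaked in the first bin of both sections, and Eomes, a gene of intermediate progenitors near the inner edge, peaked in the last bin of the control and the ninth of the KO section. Eomes marked the inner end less sharply, since on the first control side it peaked in the eighth bin and on the second KO side the outermost 2 bins held 21.9% of its transcripts against 23.7% in the innermost 2.

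The distance from the line between the brain sides separated Epha6 from the others. In the medial pallium, the 2 of 10 bins nearest the line, Epha6 stood at 1557 CPM (95% interval 1329 to 1814) in the control and at 908 CPM (842 to 977) in the KO section. In the next 4 bins, the middle part, it stood at 190.4 CPM (130 to 269) and 99.6 CPM (83.8 to 117). In the lateral 4 bins it stood at 911 CPM (806 to 1025) and 856 CPM (812 to 902). Over both brain sides together, the middle part was thus lower than its neighbours in both sections, with intervals clear of theirs. The medial level came almost wholly from the second side, where the 2 medial bins held 39.0% of the Epha6 transcripts in the control and 50.1% of those in the KO section. On the first side they held 2.0% (of 50 transcripts) and 2.10%, so there was no medial peak there and no gap to set off.

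Unc5d ran the other way. It stood at 1636 CPM (1449 to 1842) in the middle against 801 CPM (703 to 909) in the lateral pallium of the control, and at 4607 CPM (4496 to 4720) against 1760 CPM (1696 to 1825) in the KO section. Epha3 was lowest in the medial part, with 953, 3124 and 4108 CPM in the medial, middle and lateral pallium of the control and 4545, 11862 and 14495 CPM in the KO section. It peaked short of the lateral end, at 5021 CPM in the ninth bin of the control and 17931 CPM in the seventh of the KO section, with 3434 and 11495 CPM in the last bin. On the first KO side the last bin was its lowest, at 2477 CPM. Ntng2 was lower in the medial pallium, at 3775 and 4343 CPM, than in the middle, at 6528 and 5992 CPM, and the lateral, at 6118 and 5673 CPM. On the first KO side it stood at 7625 CPM in the ninth bin and 321 CPM in the last.

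**Figure D2:**
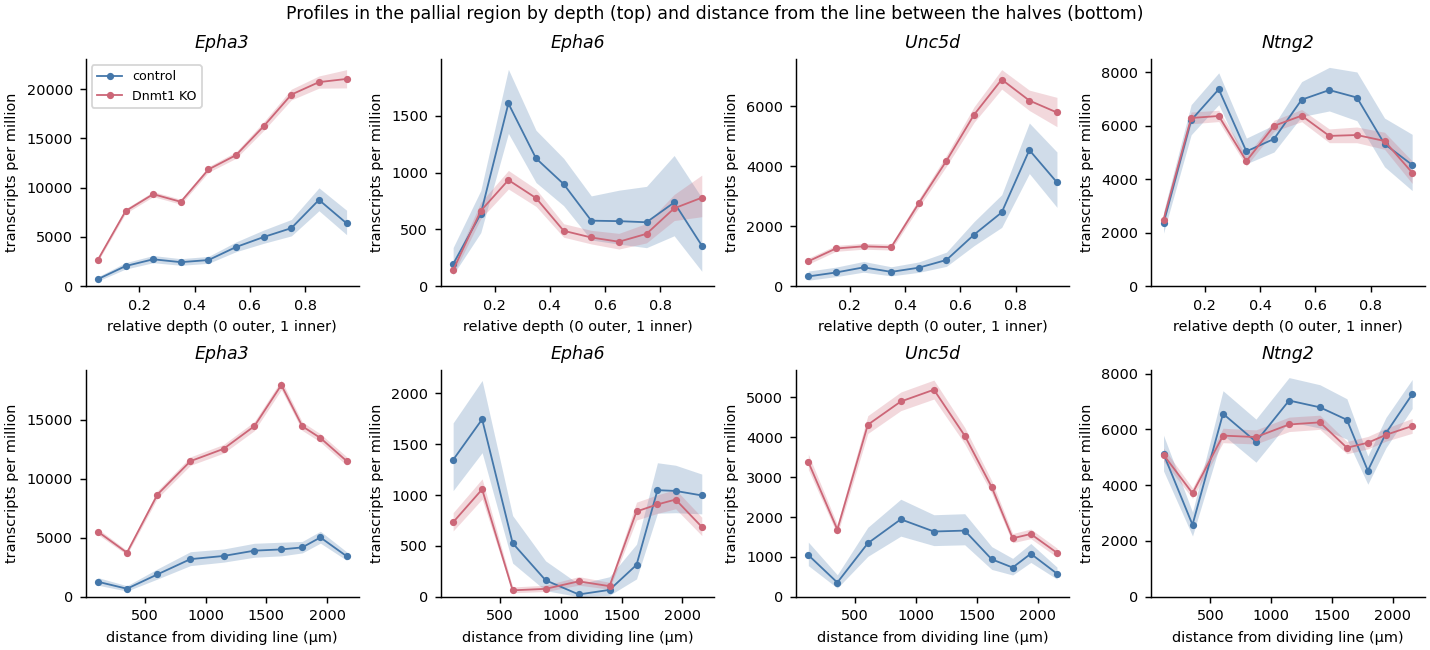
CPM in the pallial region against relative depth (top, 0 outer and 1 inner) and against the distance in µm from the line between the brain sides (bottom), in the control (blue) and Dnmt1 KO (red) section; bands are 95% counting intervals. Epha3 and Unc5d rise inwards and lie higher in the KO section in every bin, Epha6, with both brain sides pooled, dips in the middle of the pallium, and Ntng2 has an outer and an inner maximum.

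The levels of 2 of the genes differed between the sections and those of the other 2 differed less, both inside and outside the pallial region. Inside the pallial region Epha3 was counted 1862 times in the control and 43793 times in the KO section, or 3239 CPM (3093 to 3389) against 11482 CPM (11375 to 11590). This is a log2 ratio of KO over control of 1.83 (1.75 to 1.91). Unc5d was counted 588 and 11291 times, or 1023 CPM (942 to 1109) against 2960.4 CPM (2906 to 3016), a log2 ratio of 1.53 (1.39 to 1.68). With a minimum of 50 transcripts per cell the log2 ratios were 2.58 for Epha3 and 2.28 for Unc5d. Both lay past 2-fold, as did 20 of the 491 panel genes with at least 20 control transcripts there (4.07%). Both ratios had helped to choose the genes, so the count says nothing further about them. Of the reference genes, Eomes had a log2 ratio of 1.61 inside and 0.84 outside. Inside, Cux2 stood at 0.20, Tbr1 at -0.05 and Reln at -0.18. The part of the make-up of cells in the ratios of Epha3 and Unc5d was not tested.

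Epha6 was the lower one in the KO section, with 471 and 2234 transcripts, or 819 CPM (747 to 897) against 586 CPM (562 to 611), a log2 ratio of -0.48 (-0.67 to -0.29). In imaging plane 0 alone its interval held 0, at -0.32 (-0.67 to 0.036). Ntng2 was nearly level, with 3338 and 21052 transcripts, or 5806 CPM (5611 to 6007) against 5519.7 CPM (5445 to 5595), a log2 ratio of -0.07 (-0.14 to -0.0042). Neither was below the control by over 2-fold, as 9 of the 491 genes were (1.83%). The Epha6 ratio depended on the side of the brain. The sides of the control gave 339.9 and 984 CPM and those of the KO section 511 and 644 CPM, so that the 4 pairings ran from -0.95 to 0.92. For Ntng2 they ran from -0.21 to 0.27, for Epha3 from 1.73 to 2.03 and for Unc5d from 1.42 to 1.83. Over all segmented pallial cells, the median depth was 14 and 23 transcripts on the control sides and 108 and 92 on the KO sides. The dividing line was geometric, and 1713 of the medial control cells and 4252 of the medial KO cells lay on the second side against 695 and 2217 on the first. Without the medial bins, a setting added after the values were seen, the ratio was -0.38 (-0.61 to -0.14).

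Outside the pallial region Epha3 stood at 858 CPM (815 to 902) in the control and 2599 CPM (2567 to 2632) in the KO section, a log2 ratio of 1.60 (1.51 to 1.69). Unc5d stood at 467 CPM (435 to 500.1) and 949.6 CPM (930.2 to 969), a log2 ratio of 1.02 (0.90 to 1.15). Past 2-fold above the control were 25 of 500 genes (5%) and below it 4 (0.8%). Epha3, at 3.03-fold, and Unc5d, just past the limit at 2.03-fold, were among the former. The interval of Unc5d reaches below 2-fold, and its log2 ratio was under 1 with median-ratio scaling (0.97), without the 1% of largest cells (0.996) and in the lowest pairing of brain sides (0.79). Epha6 had a log2 ratio of -0.08 (-0.22 to 0.05) with 529 against 499.7 CPM, and Ntng2 one of 0.09 (-0.07 to 0.26) with 331 against 353 CPM. Both intervals held 0, but under median-ratio scaling that of Epha6 did not, at -0.14 (-0.27 to -0.0023).

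Since the sections differ as wholes, the ratio inside was set against the ratio outside. The difference was 0.23 for Epha3, 0.51 for Unc5d, -0.40 for Epha6 and -0.17 for Ntng2 on the log2 scale, against a median of -0.09 over the panel. Among the panel genes, the Unc5d difference stood at percentile 92.7, that of Epha3 at 80.9, that of Ntng2 at 40.5 and that of Epha6 at 15.3. The differences depended on the processing. With a minimum of 50 transcripts per cell the ratios inside and outside were 2.58 and 1.55 for Epha3 and 2.28 and 1.21 for Unc5d. In imaging plane 0 alone those of Unc5d were 1.04 and 1.01. The Epha3 ratio was above 0, interval included, in 10 of 10 depth bins, from 1.24 in the ninth to 2.16 in the fifth, and in 10 of 10 bins of distance from the dividing line, from 1.42 to 2.46. The Unc5d ratio was above 0 in 10 of 10 depth bins too, but smallest in the ninth, at 0.45, and largest in the sixth, at 2.26. Of the reference genes, Eomes had whole intervals above 0 in 8 of 8 depth bins with at least 20 control transcripts. Cux2 had them in 5 of 10, Tbr1 in 4 of 10, Lhx6 in 1 of 10, and Reln and Sst in 0 of 8. The same count was not made for all panel genes. In the striatal region, where it was low in both sections, Epha3 had a log2 ratio of 2.05 (1.66 to 2.46).

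**Figure D3:**
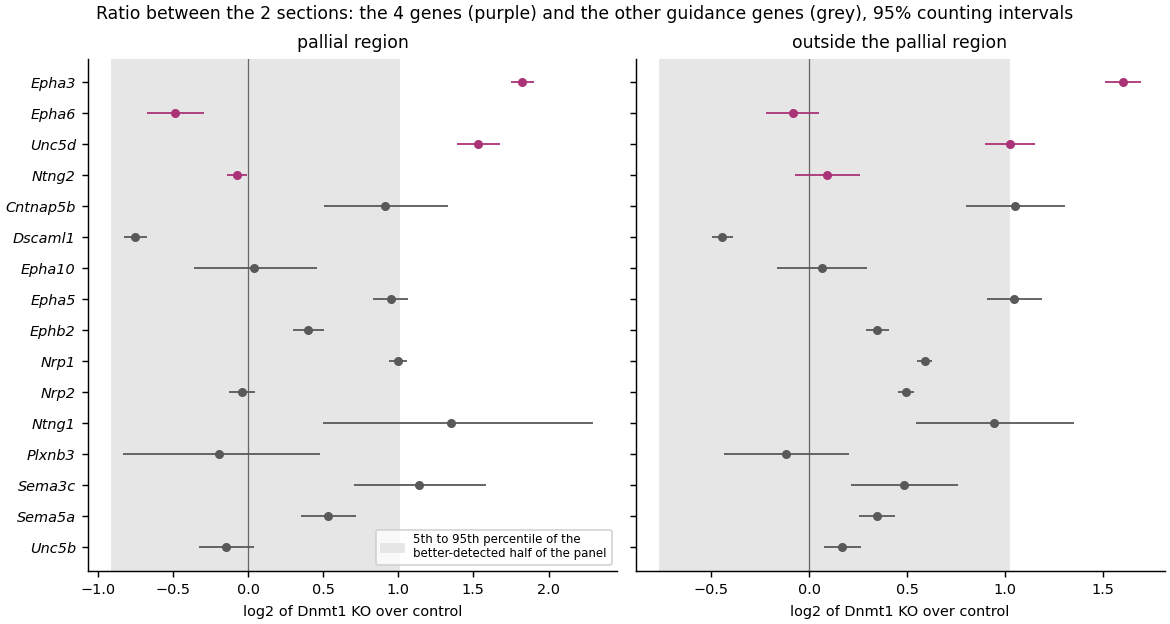
Log2 ratio of Dnmt1 KO over control for the 4 genes (purple) and the other guidance genes of the panel (grey). The left panel is inside and the right panel outside the pallial region. Bars pair opposite ends of the 95% counting intervals of both sections. The grey field spans the 5th to 95th percentile of the panel genes at or above the median level. Epha3 lies right of the field in both panels, Unc5d right of it in the left panel and at its edge in the right one, and Epha6 and Ntng2 within it.

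The panel held 12 other axon guidance genes, which are Cntnap5b, Dscaml1, Epha5, Epha10, Ephb2, Nrp1, Nrp2, Ntng1, Plxnb3, Sema3c, Sema5a and Unc5b. In the pallial region 11 of them had at least 20 control transcripts, and of these 2 lay past 2-fold above the control, against 4.07% of all genes, and 0 below it, with a median log2 ratio of 0.40 against 0.06 over all genes. The pair was Sema3c, a secreted semaphorin, at 1.14 (0.71 to 1.58), and Nrp1, a semaphorin co-receptor, at 1.0 (0.94 to 1.06). Outside, 2 of 12 lay past 2-fold above, against 5% of all genes, and 0 below, with a median of 0.42 against 0.15. They were Epha5, another class A Eph receptor, at 1.05 (0.91 to 1.19), and Cntnap5b, an adhesion molecule of the contactin-associated family, at 1.05 (0.80 to 1.31). The intervals of all 4 reach below 2-fold, and the lowest pairing of brain sides gave 0.72 for Sema3c, 0.78 for Nrp1, 0.88 for Epha5 and 0.92 for Cntnap5b, so these calls do not hold in every pairing. Epha5 stood at 0.95 (0.84 to 1.06) inside, so among class A Eph receptors Epha3 and Epha5 lay above the control while Epha10 was at 0.04 (-0.36 to 0.46) and Epha6 below. Unc5b, of the same family as Unc5d, stood at -0.14 (-0.33 to 0.04) inside and at 0.17 (0.07 to 0.26) outside. Ntng1, the closest relative of Ntng2, stood at 0.94 (0.55 to 1.35) outside, from 88 control transcripts. Dscaml1, an adhesion molecule, was the lowest of the list, at -0.75 (-0.83 to -0.67) inside and -0.44 (-0.50 to -0.39) outside.

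Cells were grouped into 25 clusters without the 4 genes among the features, so that their levels had no part in making the groups, and 16 clusters were named from marker lists. Epha3, Unc5d and Ntng2 shared the same leading cluster in both sections, that of upper-layer or immature projection neuron-like cells with Sstr2 and Pou3f2 among their leading genes (cluster 4). It held 2862 control and 8538 KO cells, of which 97.1% and 97.7% were pallial. These were 5.18% of the control and 8.43% of the KO cells with at least 20 transcripts. Epha3 stood there at 7800 CPM in control and 22072 CPM in KO cells, 5.39-fold and 4.30-fold its level over the section. Unc5d stood at 3589 and 9155 CPM, 5.94-fold and 6.01-fold, and Ntng2 at 11401 and 8476 CPM, 6.76-fold and 4.64-fold. The cluster held 21.8% of the control and 36.1% of the KO transcripts of Unc5d, 19.8% and 25.8% of those of Epha3, and 24.8% and 27.9% of those of Ntng2.

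Below this shared first place the 3 genes parted. For Epha3, both deep-layer projection neuron-like clusters followed, that led by Slc17a7, Nr4a2 and C1ql3 (cluster 12) at 4213 and 15117 CPM and that led by Mc4r, Fezf2 and Ntsr1 (cluster 0) at 2930.2 and 8986 CPM. Next in the KO section came the MGE interneuron-like cells led by Npas1, Reln and Ndnf (cluster 14), which also holds markers of Cajal-Retzius cells, at 1389 and 7120.0 CPM. The name of cluster 14 rests on Npas1, Cxcr4 and Erbb4. Of the other listed markers, Lhx6, Sst, Sox6, Gad1 and Gad2 were not among its top 10 genes. Ganglionic eminence progenitor-like cells led by Dlx1, at 1637 and 6325 CPM, and radial glia-like cells led by Aldh1l1 and Olig2, at 1191 and 6043 CPM, followed with overlapping intervals. Epha3 also lay in 2 mesenchymal or meningeal-like clusters almost wholly outside the pallial region, so its level there is not of neural cells alone. Cluster 7, led by Shisa3, stood at 1399 and 3639 CPM and held 7.77% of its control and 3.43% of its KO transcripts. Cluster 9, led by Hdc, stood at 1388 and 3341 CPM and held 6.70% and 3.40%. For Ntng2 the next levels were 6475 and 6634 CPM in an unnamed pallial cluster led by Calb2, Prokr2 and Crym (cluster 18), 6140 and 5947 CPM in the Slc17a7 cluster and 5542 and 4907 CPM in the Mc4r cluster, followed by 3317 and 4009 CPM in the MGE interneuron-like Npas1 cluster. Unc5d, in contrast, was at only 253 and 352 CPM in the Mc4r cluster. After the shared first cluster, its KO levels were highest in clusters almost wholly outside the pallial region, the CGE interneuron or olfactory neuroblast-like cells led by Onecut2, Trpc4 and Sp8 (cluster 5) at 1079 and 2980.3 CPM and the ventral forebrain or hypothalamic neuron-like cells led by Irs4 and Calcr (cluster 10) at 1401 and 2879 CPM. These 2 KO levels and that of the Calb2 cluster, 2664 CPM, did not differ beyond their counting intervals from one to the next.

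Epha6 had other leaders. The MGE interneuron-like cluster led by Sst, Elfn1 and Sertm1 (cluster 3) held 38.7% of its control and 37.9% of its KO transcripts, at 2427 and 2163 CPM. Of the cells of this cluster 6.4% and 2.7% were pallial, so most of them lay outside the pallial region. The Calb2 cluster stood at 3183 and 2089 CPM, first in the control and second in the KO section, where its interval overlapped that of the Sst cluster. The Slc17a7 cluster came next in both, at 1993 and 1748 CPM, and an unnamed cluster with Chat, which codes for the enzyme that makes acetylcholine, and Tacr1 among its leading genes (cluster 21) after it, at 1896 and 1101 CPM. In the control the intervals of the Sst, Slc17a7 and Chat clusters overlapped from one to the next. In the upper-layer or immature cluster that led for the other 3 genes, Epha6 stood at 199 and 157 CPM.

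**Figure D4:**
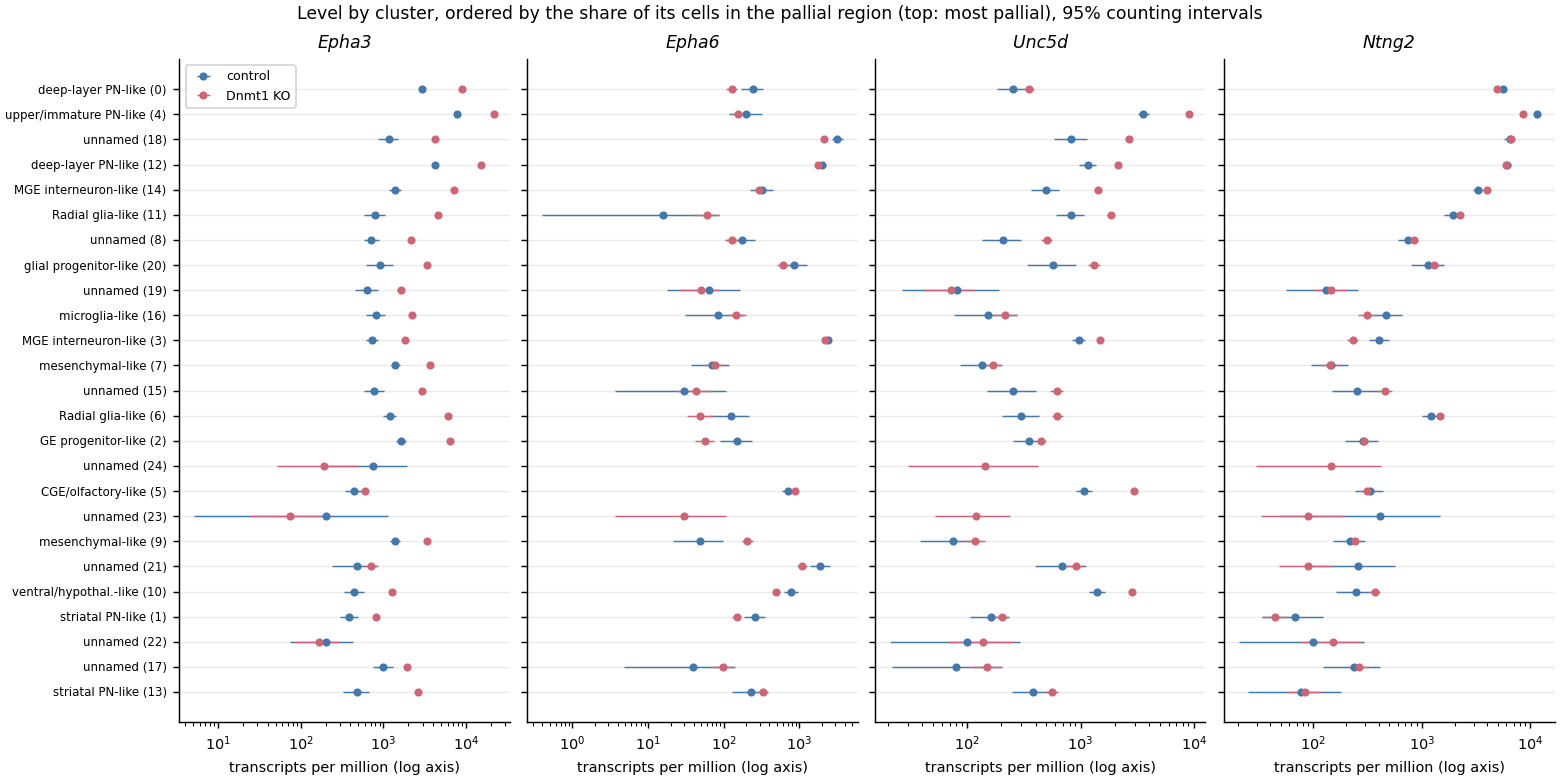
CPM of each gene in 25 clusters (log axis), control in blue and Dnmt1 KO in red, with 95% counting intervals; clusters are labelled by class and cluster number and ordered by the share of their cells in the pallial region, and a cluster with no transcript has no point. The red points of Epha3 lie right of the blue ones in nearly all clusters, those of Ntng2 and Epha6 lie close to them, and Epha6 peaks in other clusters than the remaining genes.

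The Epha3 ratio varied in size but not in sign among the 21 clusters with at least 20 control transcripts of it. Of these, 21 had a ratio above 0, 20 of them with the whole interval. The median log2 ratio of the 21 was 1.59, with a range of 0.42 to 2.54, and 19 lay past 2-fold. The clusters 22, 23 and 24, with 6, 1 and 4 control transcripts, had ratios below 0 with intervals that held 0. The highest ratio was in the radial glia-like cells led by Hopx, Aldoc and Eomes, at 785 and 4552 CPM. Of this cluster, 23.1% of the control but 41.7% of the KO cells were pallial. The part of this shift in location in its ratio was not tested. The lowest ratio of the 21, 0.42 (-0.06 to 0.92), was in the Onecut2 cluster. The ratio was also above 0 in microglia-like cells, which should lack neuronal receptors, at 818 and 2249.7 CPM and a log2 ratio of 1.46 (0.98 to 2.0). Among the 21 clusters, the control level of cluster 11, the Hopx cluster, and of clusters 13 and 15 lay below these 818 CPM. Their KO levels lay above 2249.7 CPM. In clusters 1, 3, 5 (the Onecut2 cluster), 8, 10 and 19 both levels lay below those of microglia-like cells. The same count of clusters was not made for all panel genes. The part of such signal in the levels of the other clusters was not tested.

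For Unc5d 15 of 15 clusters had a ratio above 0, 10 with the whole interval, with a median of 1.04. In the upper-layer or immature cluster it was 1.35 (1.16 to 1.55). For Epha6 1 of 11 clusters had a ratio above 0 and 5 lay below it with the whole interval, with a median of -0.48 and none past 2-fold. For Ntng2 9 of 16 lay above 0 with a median of 0.05, with -0.43 (-0.55 to -0.30) in the upper-layer or immature cluster and 0.27 (0.056 to 0.49) in the Npas1 cluster. The lowest ratio, -0.81 (-1.28 to -0.32), was in the Sst cluster, where Ntng2 stood at 404 and 231 CPM, below the 472 and 314 CPM of microglia-like cells. Between control and KO, the log2 levels of a gene over the 25 clusters correlated with r = 0.87 for Epha3, 0.94 for Epha6, 0.88 for Unc5d and 0.90 for Ntng2, against a median of 0.87 over all genes. The clusters were made on both sections jointly, which all genes share.

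The share of cells with a transcript depends on depth, so every cell was thinned to 25 transcripts and shallower cells were left out. Of 10908 control and 29742 KO cells of the pallial region, Epha3 was then found in 7.91% (7.41 to 8.43) and 23.6% (23.1 to 24.1), and Unc5d in 2.43% (2.15 to 2.74) and 7.43% (7.13 to 7.73). Ntng2 was found in 13.3% (12.7 to 14.0) and 12.5% (12.1 to 12.9), and Epha6 in 1.81% (1.56 to 2.07) and 1.06% (0.95 to 1.19). Without thinning the KO shares were 52.6%, 21.5%, 38.7% and 5.18% and the control shares 11.4%, 3.82%, 18.5% and 2.78%, in the same order of genes, at a median of 102 and 33 transcripts per cell. As a background, microglia-like cells thinned alike had Epha3 at shares of 2.47% (1.65 to 3.56) over 1132 cells and 4.52% (3.64 to 5.54) over 1947 cells. For the other 3 genes their shares were between 0.353% and 0.719% in both sections. These cells were taken over the whole section. In the KO section their Epha6 share was 0.616% (0.319 to 1.07). This interval overlapped those of Epha6 in the pallial region and outside it, where the share was 1.09% (1.02 to 1.17). In the control their Epha6 share, 0.353% (0.0964 to 0.902), lay below the pallial one and the 1.35% (1.23 to 1.48) outside. Outside the pallial region the share with Epha3 was 2.04% (1.89 to 2.20) and 6.19% (6.01 to 6.37), and that with Ntng2 was 0.758% (0.667 to 0.858) and 0.921% (0.851 to 0.994), so that both control shares lay at the microglia-like background and both KO shares above it. Median depths there were 35 and 112 transcripts per cell, and 46 and 139 in microglia-like cells.

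Epha3, Unc5d and Ntng2 were found in the same pallial cells more often than their separate shares give, and Epha6 was not. In the KO section 853 cells had both Epha3 and Unc5d where 522 were expected, 1.64 times as many (1.53 to 1.75), and in the control 37 where 21.0 were expected, 1.76 times (1.24 to 2.43). Unc5d with Ntng2 was seen in 1.35 times (1.22 to 1.49) and 1.56 times (1.17 to 2.03) the expected number of cells, and Epha3 with Ntng2 1.25 times (1.18 to 1.33) and 1.28 times (1.08 to 1.5). Within clusters these values fell to 1.13 (1.05 to 1.21), 1.02 (0.92 to 1.13) and 1.08 (1.02 to 1.15) in the KO section, so most of the excess lay between clusters. The 3 pairs with Epha6 had intervals that held 1 in both sections, with 18 KO cells and 2 control cells for Epha6 with Unc5d, which is too few to tell an excess from a lack. Outside the pallial region, Unc5d and Ntng2 were seen together in 2.09 times (1.42 to 2.96) the expected number of KO cells and within clusters in 1.5 times (1.02 to 2.13). For Epha3 and Ntng2 it was 2.04 times (1.62 to 2.53) and within clusters 1.29 times (1.02 to 1.60), and for Epha3 and Unc5d, the leading pallial pair, 1.0 times (0.82 to 1.22). In the control these 3 pairs had 4 to 6 such cells each and intervals that held 1. Epha6 and Unc5d were seen together in 1.99 times (1.38 to 2.76) the expected number of cells in the KO section and 2.13 times (1.10 to 3.72) in the control, and Epha3 and Epha6 0.68 times (0.46 to 0.96) and 0.88 times (0.38 to 1.73). Within clusters the KO value of Epha6 with Unc5d outside was 1.16 (0.81 to 1.61). That of Epha3 with Epha6 was 0.93 (0.63 to 1.31), and both intervals held 1.

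**Figure D5:**
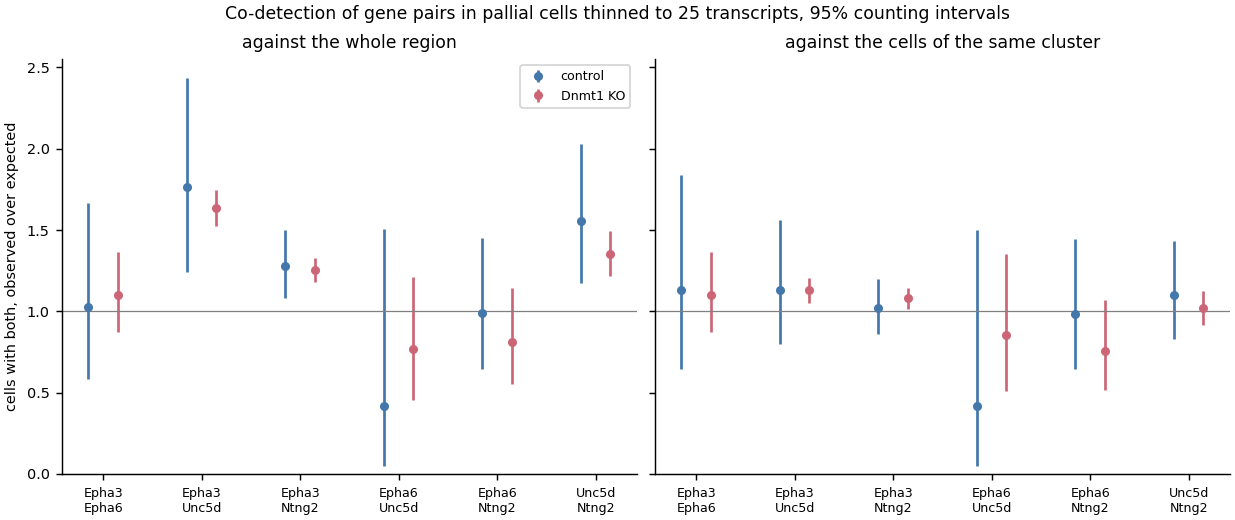
Number of pallial cells with transcripts of both genes of a pair, divided by the number expected from their separate shares over the whole region (left) and within the clusters (right), in cells thinned to 25 transcripts; control in blue, Dnmt1 KO in red, bars are 95% counting intervals. The pairs among Epha3, Unc5d and Ntng2 lie above 1 on the left and nearer to 1 on the right, and pairs with Epha6 have intervals that hold 1.

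The panel genes most like each member were read over the 25 clusters (Pearson's r of log2 levels, ranked in the KO section) and over squares of 100 µm (1384 in the KO and 1254 in the control section). Points of one section share its library and its depth, and adjoining squares lie in the same tissue, so the points are not independent. Over the clusters Epha3 was most like Ntng2, with r = 0.73 in the KO and 0.65 in the control section, and among the next were Kcnab3, Epha5 and Pcdh9, with 0.61 to 0.66 in the KO section. Over the squares of the KO section it was most like Cux2 (0.65) and again Ntng2 (0.64). In the control r was 0.49 with Cux2 and 0.51 with Ntng2. Unc5d was most like Slc17a6, a vesicular glutamate transporter, over the clusters (0.88 and 0.92) and over the squares (0.79 and 0.54), followed over the squares by Sstr2, Tagln3, Cux2 and Kctd4. Ntng2 was most like Prdm8 in both readings (0.91 and 0.88, then 0.81 and 0.74), with Fezf2 and Tbr1 behind it over the clusters and Tbr1, Nos1 and Wnt7b among the next over the squares. Epha6 was most like Cpne4, Calb1 and Ackr1 over the clusters (0.85 to 0.86), and over the squares it was most like Sphkap, Cpne4 and Rab3b (0.65 to 0.69), with Sst among the next (0.64). Over the squares Epha6 had r = 0.03 with Epha3, 0.07 with Ntng2 and 0.27 with Unc5d in the KO section. Over the clusters it was nearest to Unc5d among the members, with r = 0.63 in the KO and 0.74 in the control section. There its r was 0.37 and 0.28 with Epha3 and 0.30 and 0.45 with Ntng2. Unc5d had 0.48 and 0.43 with Epha3 over the clusters, and 0.64 and 0.62 with Ntng2.

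The Cre driver is active in cells that express Sst, and these were few. In cells with at least 2 Sst transcripts, 278 control and 1825 KO cells, Epha3 stood at 1363 and 4140.4 CPM. This was a log2 ratio of 1.60 (0.92 to 2.36) that rested on 21 control transcripts. After the KO counts were thinned to the control total, which left 323 such KO cells, it was 1.58 (0.61 to 2.61). In the pallial region the deposited counts gave 2.09 (1.23 to 3.08) for Epha3, from 13 control transcripts in 77 cells. Outside it they gave 1.14 (0.04 to 2.48), from 8 control transcripts. The levels outside, 802 and 1772 CPM, lay below the 818 and 2249.7 CPM of microglia-like cells. After thinning, the Epha3 interval outside held 0, at 1.23 (-0.39 to 3.01). Ntng2 stood at 2336 and 1273 CPM in them, a log2 ratio of -0.88 (-1.47 to -0.24) that rested on 36 control transcripts, and after thinning it was -2.16 (-3.75 to -0.72) with 9 KO transcripts left. Split by region, the deposited counts gave -0.54 (-1.17 to 0.14) in the pallial region, with 32 of the 36 control transcripts, and -1.18 (-2.96 to 1.10) outside it, and both intervals held 0. After thinning, the pallial value was -1.53 (-3.15 to -0.06), an interval that did not. Epha6 at -0.30 (-0.90 to 0.36) and Unc5d at 0.90 (-0.06 to 2.03) had intervals that held 0, and also after thinning, at 0.17 (-0.82 to 1.16) and 0.47 (-1.15 to 2.15), where Epha6 turned direction. In the larger group of cells with Lhx6 and Gad1 or Gad2, 4205 and 17235 cells, Epha3 had a ratio of 2.24 (1.98 to 2.50) and Unc5d 0.92 (0.66 to 1.18), and thinned 1.94 (1.59 to 2.29) and 0.92 (0.54 to 1.31). Epha6 at -0.58 (-0.79 to -0.37) and Ntng2 at 0.51 (0.24 to 0.80) had intervals that held 0 after thinning, at -0.19 (-0.53 to 0.14) and -0.17 (-0.66 to 0.32). These cell groups were chosen after their values had been seen.

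Molecules were also read without the segmentation. In the pallial region 11.2% of the control and 14.7% of the KO molecules of Epha3 lay outside segmented cells, against 17.6% and 18.9% of all panel molecules. For Unc5d the shares were 12.2% and 16.6%, for Ntng2 14.5% and 18.4%, and for Epha6 17.4% and 18.9%. The 3 uppermost of 7 imaging planes held 32.8% and 39.3% of the pallial Epha3 molecules, against 27.0% and 33.1% of all panel molecules. In plane 0 alone the pallial ratio of Epha3 was 1.45 (1.32 to 1.58) and that of Unc5d 1.04 (0.82 to 1.27). Plane 6 held 23.6% as many molecules as plane 0 in the control section and 43.2% as many in the KO section, so the share by plane and the section cannot be told apart.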

How the data were processed

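MERFISH was run on 1 coronal E16.5 section per genotype. The authors' instrument software decoded the molecules and segmented the cells, and they deposited whole-number transcript counts per cell and gene, with cell positions and a list of decoded molecules. The segmentation model is not given in the sources used here. The authors' own annotation of cells was not repeated. Counts were used as deposited, as transcripts per 1000000 panel transcripts (CPM) over cells with at least 20 transcripts. The pallial region was outlined from 5 pallial and 15 subpallial genes and the striatal region from 7 genes, on a grid of 25 µm smoothed with an SD of 50 µm. Cells were clustered without the 4 genes (R 4.3.3, Seurat 5.3.0, 30 principal components, resolution 0.8), and a cluster was named from at least 3 markers among its top 10 genes by fold. No doublet caller was run on segmented cells; leaving out the 1% of largest cells was an alternative. Ratios, exact Poisson and Clopper-Pearson 95% intervals and thinning to 25 transcripts were computed in Python 3.11.15 (numpy 2.4.6, pandas 2.3.3, scipy 1.17.1) and tested on simulated data. Intervals cover counting error only, and that of a ratio pairs opposite ends of both Poisson intervals. Named genes were the 4 members, the other guidance genes, the 5 panel genes most like each member over clusters and over squares of 100 µm, leading genes of clusters, and reference genes of layers and cell classes. Some of these genes are not reported here. The members and lists were chosen with earlier results of these data known. The comparison of cells with Sst or Lhx6 and the setting without the medial bins were chosen after seeing the data. With 1 section per group no test was made.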

Additional observations from a re-analysis of the deposited data

How the results depend on the processing

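The log2 ratios of Epha3 and Unc5d stayed above 0 under every alternative tried, from 1.45 to 2.58 and from 1.04 to 2.28 inside the pallial region and from 1.22 to 1.66 and from 0.79 to 1.26 outside it. Those of Epha6 and Ntng2 changed sign under some. Depth limits all values, with a median of 20 transcripts per cell in control and 101 in KO cells, and the cause of each change below was not tested. No paired analysis was possible because each group had 1 section.

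Inside the pallial region, the log2 ratio without a minimum of transcripts per cell was 1.61 for Epha3, -0.27 for Epha6 and 1.23 for Unc5d. With a minimum of 50 per cell it was 2.58 for Epha3, -0.81 for Epha6, 2.28 for Unc5d and 0.22 for Ntng2, whose direction turned. Over all decoded molecules it was 1.65 for Epha3, -0.26 for Epha6 and 1.28 for Unc5d, and in imaging plane 0 alone 1.45 for Epha3 and 1.04 for Unc5d. With the KO counts thinned to the control total Unc5d stood at 1.39. The lowest and highest pairing of brain sides gave 1.73 and 2.03 for Epha3, -0.95 and 0.92 for Epha6 and -0.21 and 0.27 for Ntng2, with a turn of direction for the last 2 genes, and the highest gave 1.83 for Unc5d. Outside the pallial region, plane 0 alone gave 1.22 for Epha3 and 0.099 for Epha6. The minimum of 50 gave 1.21 for Unc5d. The pairings gave 0.79 and 1.26 for Unc5d and -0.17 and 0.50 for Ntng2.

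The median relative depth in the KO minus that in the control section was -0.016 for Epha3, 0.024 for Epha6, -0.076 for Unc5d and 0.025 for Ntng2. Over all decoded molecules it was -0.043 for Epha3 and -0.0051 for Ntng2. The pairings gave -0.042 and 0.026 for Epha3, -0.057 and 0.106 for Epha6, and -0.119 and 0.114 for Unc5d, so no shift in depth held its direction for these 3 genes. In the highest cluster, the level over that of the KO section was 4.17-fold for Epha3, 5.32-fold for Epha6 and 4.87-fold for Ntng2 when cells were clustered with all 500 genes, where the highest cluster of Epha6 was the one led by Calb2 and Prokr2 and no longer the one led by Sst, and 4.99-fold for Epha6 at a resolution of 1.2. The difference between the shares of pallial cells, KO minus control, was 41.3 percentage points for Epha3, 2.40 for Epha6, 17.7 for Unc5d and 20.1 for Ntng2 without thinning, where Epha6 and Ntng2 turned direction. With at least 2 transcripts per cell it was 4.97 for Epha3, -0.069 for Epha6 and 0.74 for Unc5d. The other alternatives moved the values by less than their counting intervals. Some still changed whether the interval of a log2 ratio held 0. It came to hold 0 inside the pallial region for Epha6 in plane 0 alone, at -0.32 (-0.67 to 0.036), and for Ntng2 in plane 0 alone, at -0.036 (-0.16 to 0.085), and with the outline at 40%, at -0.063 (-0.13 to 0.0058). It ceased to hold 0 outside for Epha6 under median-ratio scaling, at -0.14 (-0.27 to -0.0023).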
